A study of Mus musculus with 7 samples.

Results

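The 10 epithelial claudin genes Cldn1, Cldn3, Cldn4, Cldn6, Cldn7, Cldn8, Cldn9, Cldn10, Cldn12 and Cldn23 were followed through 7 RNA-seq libraries of sorted mouse fetal mammary cells. They were taken by gene symbol from a deposited table of 38579 gene entries. All 10 were present with 1 entry each, and 24 other entries of the claudin family, 1 of them a pseudogene, stand in the same table. The cells were primary cells of CD1 embryos at E17.5, late in gestation, separated by 2 sorting strategies into epithelium rich in fetal mammary stem cells, abbreviated fMaSC, and surrounding stroma. A Sox10-Venus fluorescent reporter and the surface protein EpCAM defined the Sox10+EpCAM+ fMaSC (2 libraries) and the EpCAM-negative stroma (1 library, by its title also Sox10-negative). The surface proteins CD24 and CD49f defined the CD24+CD49f+ fMaSC (2 libraries) and the CD24low stroma (again 2). All were sorted as lineage-negative by the table's column names, although the title of Sox10+EpCAM+ replicate 1 does not say so. The labels name no knockout or drug treatment for these 7 libraries, and they call the libraries biological replicates without saying whether embryos were pooled.

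Claudins are membrane proteins with 4 transmembrane segments that polymerise into the strands of tight junctions. The strands join neighbouring epithelial cells, and which claudins a cell makes sets how tightly the gap between cells is sealed and which ions may cross it. In mammary tissue the tight junctions of luminal cells separate the lumen from the tissue beneath, and human breast tumours with low claudin-3, claudin-4 and claudin-7 are known as claudin-low.

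Values are FPKM, fragment counts scaled to transcript length and library size, so that levels of different genes can be set side by side. The summed FPKM differed between libraries, from 378952 in EpCAM-negative stroma to 752737 in CD24+CD49f+ fMaSC replicate 1. Mitochondrial genes held from 6.23% of the sum in EpCAM-negative stroma to 19.0% in Sox10+EpCAM+ fMaSC replicate 1. Depth was estimated at 24600000 to 36900000 fragments a library, and a level of 1 FPKM was reached by 12790 to 13639 genes in each. The sorted identities were checked against marker genes. The summed FPKM of 5 luminal markers (Krt8, Krt18, Krt19, Gata3 and Elf5) was 341 and 412 in Sox10+EpCAM+ fMaSC and 265 and 148 in CD24+CD49f+ fMaSC, and lay between 2.26 and 5.19 in the 3 stroma libraries. For 5 basal markers (Krt5, Krt14, Krt17, Trp63 and Cdh3) the sum was 162 and 218 in Sox10+EpCAM+ fMaSC. It was 120 and 90.2 in CD24+CD49f+ fMaSC, and lay between 1.22 and 2.53 in the 3 stroma libraries. The summed FPKM of 6 fibroblast markers (Col1a1, Col1a2, Col3a1, Dcn, Lum and Pdgfra) was 44.5 and 73.5 in Sox10+EpCAM+ fMaSC, 6058 in EpCAM-negative stroma, 2061 and 3294 in CD24+CD49f+ fMaSC, and 7176 and 6675 in CD24low stroma. The CD24+CD49f+ fMaSC libraries carried fibroblast transcripts at levels far above those of the Sox10+EpCAM+ libraries.

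The sequences just upstream of Cldn3, Cldn4, Cldn6 and Cldn7 are shown because these genes had the highest fMaSC levels of the 10 and moved together across the libraries. They come from RefSeq promoters of GRCm38.p6, in which 7 of the 10 genes had an entry, and cover up to 250 bases before the transcription start. The Cldn6 stretch stops after 134 bases, where another annotated transcript of Cldn6 begins. Capitals mark matches, on either strand, to 1 of 4 motifs: the grainyhead-like motif AACCNGTT, the E-box CAGGTG bound by Snail and Zeb proteins, the GC box GGGCGG bound by Sp1, and the AP-2 motif GCCNNNGGC. In these 4 stretches no match shares a base with a match to another motif.
Cldn3, chr5:134985964-134986213, plus strand: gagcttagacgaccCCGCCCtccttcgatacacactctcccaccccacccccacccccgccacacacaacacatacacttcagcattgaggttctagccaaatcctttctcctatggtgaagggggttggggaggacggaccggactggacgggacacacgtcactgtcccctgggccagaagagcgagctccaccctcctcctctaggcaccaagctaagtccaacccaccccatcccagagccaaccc
Cldn4, chr5:134946935-134947184, minus strand: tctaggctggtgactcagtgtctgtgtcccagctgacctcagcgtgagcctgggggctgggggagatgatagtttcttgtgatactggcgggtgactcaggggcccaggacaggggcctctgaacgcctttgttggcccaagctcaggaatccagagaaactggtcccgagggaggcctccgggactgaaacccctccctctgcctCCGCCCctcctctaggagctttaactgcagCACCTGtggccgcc
Cldn6, chr17:23679115-23679248, plus strand: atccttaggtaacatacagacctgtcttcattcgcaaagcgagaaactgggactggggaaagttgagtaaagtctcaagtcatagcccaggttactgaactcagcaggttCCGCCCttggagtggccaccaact
Cldn7, chr11:69964529-69964778, plus strand: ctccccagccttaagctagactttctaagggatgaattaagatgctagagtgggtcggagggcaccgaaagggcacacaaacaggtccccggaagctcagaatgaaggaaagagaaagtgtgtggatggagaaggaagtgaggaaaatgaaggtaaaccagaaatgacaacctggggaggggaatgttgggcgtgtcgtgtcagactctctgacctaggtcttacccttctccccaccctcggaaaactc
Cldn3, Cldn4 and Cldn6 each held a GC box, which 32.7% of all 32851 RefSeq windows of that length hold. The Cldn4 stretch also held an E-box 14 to 9 bases before the start, against 17.2% of all windows. The Cldn7 stretch held none of the 4 motifs, although a second Cldn7 window, which lies over annotated exons and is not printed, held 2 E-boxes and a GC box. The unprinted end of the Cldn6 window held 1 more GC box and an E-box. No window of the 7 genes held the grainyhead-like motif, which 1.8% of all windows hold, and the AP-2 motif, held by 13.7% of all windows, was found among them only upstream of Cldn12. These letters describe the windows and say nothing of binding.

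Several of the genes lie close together in the genome (coordinates of GRCm38, as the files give them). Cldn4 (ENSMUSG00000047501, chromosome 5, 134945126 to 134946934) and Cldn3 (ENSMUSG00000070473, chromosome 5, 134986214 to 134987476) are separated by 39.3 kb. Cldn6 (ENSMUSG00000023906, chromosome 17, 23679365 to 23682446) and Cldn9 (ENSMUSG00000066720, chromosome 17, 23682584 to 23684026) lie tail to tail, 137 bases apart on opposite strands. Whether the counting used strand is not given in the sources used here, so fragments that reach past either end cannot be assigned with certainty. Cldn7 (ENSMUSG00000018569) lies on chromosome 11, 69964779 to 69967885.

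Cldn4, Cldn7, Cldn6 and Cldn3 were the most abundant claudins of both fMaSC fractions and stood far lower in stroma, where Cldn4, Cldn6 and Cldn7 stayed under 1 FPKM. Cldn4, a barrier claudin and, with Cldn3, a receptor of the Clostridium perfringens enterotoxin, stood at 96.4 and 120 FPKM in Sox10+EpCAM+ fMaSC, against 0.831 FPKM in EpCAM-negative stroma. In the other sort it stood at 58.8 and 41.1 FPKM in CD24+CD49f+ fMaSC, against 0.729 and 0.342 FPKM in CD24low stroma. Every fMaSC library was far above every stroma library, with a ratio of mean FPKM of 130 in the first sort and 93.3 in the second. The fold changes on the log2(FPKM + 1) scale, on which changes of weakly expressed genes come out too small, were 5.89 (SE 0.31, limma adjusted p = 0.000276) and 5.04 (SE 0.25, adjusted p = 0.000396).

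Cldn7, which sits on the basolateral membrane as well as in tight junctions and binds EpCAM, had 83.8 and 88.7 FPKM in Sox10+EpCAM+ fMaSC, against 0.897 FPKM in EpCAM-negative stroma. It had 55.6 and 41.3 FPKM in CD24+CD49f+ fMaSC, against 0.605 and 0.697 FPKM in CD24low stroma. Groups did not overlap in either sort, and the log2 fold changes were 5.52 (SE 0.24, limma adjusted p = 0.00026) and 4.89 (SE 0.19, adjusted p = 0.000356). Cldn6, a claudin of embryonic epithelia, had 70.3 and 80.7 FPKM in Sox10+EpCAM+ fMaSC, against 0.429 FPKM in EpCAM-negative stroma. It had 44.6 and 34.2 FPKM in CD24+CD49f+ fMaSC, against 0.373 and 0.15 FPKM in CD24low stroma. Its groups were likewise apart, with the widest FPKM ratios of the 4 genes (176 and 151) and log2 fold changes of 5.74 (SE 0.25, limma adjusted p = 0.00026) and 4.99 (SE 0.20, adjusted p = 0.000356). Cldn3 had 47.6 and 54.9 FPKM in Sox10+EpCAM+ fMaSC, against 1.12 FPKM in EpCAM-negative stroma. It had 31.8 and 21.8 FPKM in CD24+CD49f+ fMaSC, against 1.65 and 1.36 FPKM in CD24low stroma. Unlike the other 3, Cldn3 kept a level above 1 FPKM in every stroma library. Its log2 fold changes were 4.62 (SE 0.28, limma adjusted p = 0.000331) and 3.45 (SE 0.22, adjusted p = 0.000746).

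In bulk libraries such as these, fewer cells of a type and less RNA per cell cannot be told apart, and this holds for the low claudin levels of stroma. Beside them, Epcam itself had 1.19 FPKM in EpCAM-negative stroma and 0.532 and 0.428 FPKM in CD24low stroma, and Krt8 had 1.30, 0.498 and 0.367 FPKM in the same libraries. The part of remaining epithelial cells in the stromal claudin values was not tested.

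**Figure D1:**
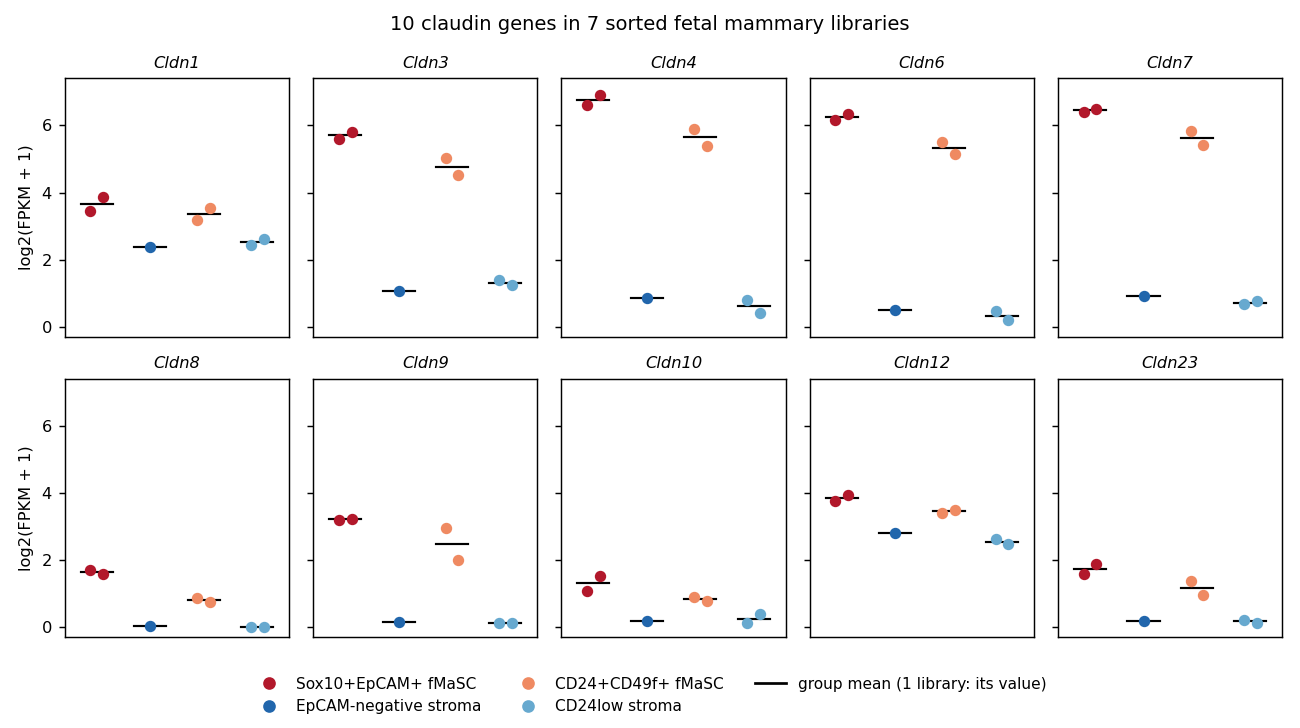
Level of each of the 10 claudin genes (vertical axis, log2(FPKM + 1)) in each library, with points for libraries and a line for the group mean; EpCAM-negative stroma is 1 library. Every fMaSC point lies above every stroma point for each gene, and the gap is wide for Cldn4, Cldn6 and Cldn7 and narrow for Cldn1, Cldn10 and Cldn12.

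Cldn1 and Cldn12 differed from these genes in being well expressed in both cell types. Cldn1, the barrier claudin of the epidermis (ENSMUSG00000022512, chromosome 16, 26356642 to 26371841), had 9.93 and 13.6 FPKM in Sox10+EpCAM+ fMaSC, against 4.14 FPKM in EpCAM-negative stroma. It had 8.08 and 10.5 FPKM in CD24+CD49f+ fMaSC, against 4.44 and 5.14 FPKM in CD24low stroma. Libraries did not overlap between cell types, but the ratio of means was 2.84 in the first sort and 1.94 in the second. The log2 fold change of Cldn1 passed the test in the first sort (1.30, SE 0.27, limma adjusted p = 0.0175) and not in the second (0.82, SE 0.22, adjusted p = 0.0707).

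Cldn12, an atypical claudin that lacks the usual carboxy-terminal motif for binding PDZ scaffolds (ENSMUSG00000046798, chromosome 5, 5505015 to 5514958), had 12.7 and 14.4 FPKM in Sox10+EpCAM+ fMaSC, against 6.04 FPKM in EpCAM-negative stroma. It had 9.49 and 10.3 FPKM in CD24+CD49f+ fMaSC, against 5.15 and 4.51 FPKM in CD24low stroma. It was higher in fMaSC in both sorts, by log2 fold changes of 1.04 (SE 0.20, limma adjusted p = 0.0137) and 0.91 (SE 0.17, adjusted p = 0.0224). When each library was rescaled to the same summed FPKM (TPM scaling), which moved the median fold of all genes by -0.72 and -0.25 in the 2 sorts, none of the fMaSC-stroma calls of Cldn1 or Cldn12 remained. Their folds stayed above 0, between 0.32 and 0.69. The summed FPKM of 7 markers of epidermis, the other tissue known for Cldn1, was 5.12 and 5.04 in Sox10+EpCAM+ fMaSC, against 12.4 in EpCAM-negative stroma. In the other sort it was 8.57 and 3.76 in CD24+CD49f+ fMaSC, against 9.15 and 18.9 in CD24low stroma. These markers did not move as one. Krtdap, Sbsn and Lor (3.78, 7.04 and 0.581 FPKM) were higher in EpCAM-negative stroma than in both Sox10+EpCAM+ libraries. Krt1, Krt10 and Ivl (0.016, 0.987 and 0.021 FPKM) were lower there, and Flg was listed at 0. The part of epidermis was not tested.

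The remaining genes, Cldn8, Cldn9, Cldn10 and Cldn23, stood under 10 FPKM in fMaSC and under 0.5 FPKM in stroma. Cldn9 had 8.15 and 8.41 FPKM in Sox10+EpCAM+ fMaSC, against 0.113 FPKM in EpCAM-negative stroma. It had 6.68 and 2.98 FPKM in CD24+CD49f+ fMaSC, against 0.0784 and 0.0943 FPKM in CD24low stroma. The stroma values of Cldn9, a claudin known from the inner ear, correspond to an estimated 2.9 to 3.9 fragments. The gene was called higher in fMaSC in both sorts, with log2 fold changes of 3.06 (SE 0.38, limma adjusted p = 0.00278) and 2.35 (SE 0.31, adjusted p = 0.00743).

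Cldn23, an atypical claudin of intestinal epithelium (ENSMUSG00000055976, chromosome 8, 35824709 to 35826559), had 2.00 and 2.67 FPKM in Sox10+EpCAM+ fMaSC, against 0.128 FPKM in EpCAM-negative stroma. It had 1.60 and 0.935 FPKM in CD24+CD49f+ fMaSC, against 0.158 and 0.0952 FPKM in CD24low stroma, with no overlap between cell types. Its log2 fold changes were 1.56 (SE 0.25, limma adjusted p = 0.00684) and 0.99 (SE 0.20, adjusted p = 0.0324). Cldn8, a claudin of the kidney collecting duct that is known to partner Cldn4 there (ENSMUSG00000050520, chromosome 16, 88560828 to 88563183), had 2.27 and 1.97 FPKM in Sox10+EpCAM+ fMaSC, against 0.0164 FPKM in EpCAM-negative stroma. That stroma value corresponds to about 1.0 fragment. In CD24+CD49f+ fMaSC it had 0.826 and 0.685 FPKM, and it was listed at 0 in both CD24low stroma libraries, so no ratio is given there. The test called Cldn8 higher in fMaSC in both sorts (limma adjusted p = 0.00196 and 0.0221).

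Cldn10, known for alternative promoters whose proteins pass different ions (ENSMUSG00000022132, chromosome 14, 118787871 to 118875489), had 1.13 and 1.86 FPKM in Sox10+EpCAM+ fMaSC, against 0.133 FPKM in EpCAM-negative stroma. It had 0.866 and 0.706 FPKM in CD24+CD49f+ fMaSC, against 0.0818 and 0.304 FPKM in CD24low stroma. Groups were apart in both sorts, but the test called the gene in the first sort (log2 fold change 1.12, SE 0.25, limma adjusted p = 0.022) and not in the second (0.59, SE 0.20, adjusted p = 0.139). The deposited values are per gene, so the isoforms of Cldn10 are not separated.

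Counted over the genes, 10 of 10 were called higher in Sox10+EpCAM+ fMaSC than in EpCAM-negative stroma, where 12.5% of the 14418 genes tested were called higher. In CD24+CD49f+ fMaSC against CD24low stroma 8 of 10 were called higher, against 7.78% of all genes, and with both sorts in 1 model 10 of 10, against 15.6%. Complete separation of the libraries, found for all 10 genes in each sort, occurred upward in 50.3% of all genes in the first sort, where the stroma is 1 library, and in 30.4% in the second. The median log2 fold change of the 10 genes was 2.34, 1.67 and 1.93 in these 3 comparisons, beside 0.09, 0.13 and 0.12 for all genes. In the model of both sorts the log2 fold changes were 5.38 (Cldn4), 5.29 (Cldn6), 5.14 (Cldn7), 3.92 (Cldn3), 2.63 (Cldn9), 1.22 (Cldn23), 1.13 (Cldn8), 1.01 (Cldn1), 0.96 (Cldn12) and 0.80 (Cldn10). Genes were tested where at least 2 libraries reached 1 FPKM. All 10 genes passed, but Cldn4, Cldn6, Cldn7, Cldn8, Cldn9, Cldn10 and Cldn23 reached 1 FPKM in no stroma library. These 7 passed through fMaSC alone, so their count supports nothing beyond the values of each gene. The EpCAM-negative group is 1 library, and its spread is taken from the other groups.

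The number of calls depended on single libraries. Without Sox10+EpCAM+ fMaSC replicate 2, 6 genes were called in the first sort, as Cldn1 and Cldn12 lost their calls and Cldn8 and Cldn10 were no longer tested. In the second sort 4 genes were called without either CD24low stroma replicate, as Cldn8, Cldn9, Cldn12 and Cldn23 lost their calls, and 5 without either Sox10+EpCAM+ replicate. Without the filter on low values 4 were called there, and with TPM scaling or only the libraries of that sort 5. Quantile normalization left 6 in the second sort. In the first sort 7 were called without the filter, and 7 with TPM scaling. In the model of both sorts 6 were called without the filter, 7 with TPM scaling and 9 with quantile normalization. The calls of Cldn3, Cldn4, Cldn6 and Cldn7 were kept in both sorts whichever library was left out.

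The order of the claudins also differed between the cell types. In Sox10+EpCAM+ fMaSC the order by mean was Cldn4 (108 ± 16.5 FPKM, SD, n = 2), Cldn7 (86.2 ± 3.43), Cldn6 (75.5 ± 7.35), Cldn3 (51.3 ± 5.11), Cldn12 (13.5 ± 1.23), Cldn1 (11.8 ± 2.61) and Cldn9 (8.29 ± 0.184), with Cldn23, Cldn8 and Cldn10 under 3 FPKM. Only Cldn12 with Cldn1, and Cldn23 with Cldn8, overlapped with their neighbour in this order. CD24+CD49f+ fMaSC had the same 4 genes on top, with Cldn4 (49.9 ± 12.5 FPKM, SD, n = 2) and Cldn7 (48.5 ± 10.1) overlapping, and Cldn7 overlapping with Cldn6 (39.4 ± 7.4). In CD24low stroma Cldn12 (4.83 ± 0.453 FPKM, SD, n = 2) and Cldn1 (4.79 ± 0.493) led and overlapped, and Cldn3 (1.5 ± 0.205) came next. EpCAM-negative stroma had the same 3 genes on top, at 6.04 FPKM for Cldn12, 4.14 for Cldn1 and 1.12 for Cldn3.

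As a share of the summed FPKM of the 10 genes, Cldn3, Cldn4, Cldn6 and Cldn7 made up 89.2% and 88.9% in Sox10+EpCAM+ fMaSC, against 23.6% in EpCAM-negative stroma. They made up 87.4% and 84.1% in CD24+CD49f+ fMaSC, against 25.3% and 20.1% in CD24low stroma. Cldn1 and Cldn12 together took between 72.3% and 76.0% of the sum in the 3 stroma libraries, and between 6.76% and 12.7% in the 4 fMaSC libraries. The sum itself was 334 and 387 FPKM in Sox10+EpCAM+ fMaSC, against 13.8 FPKM in EpCAM-negative stroma, and 218 and 165 FPKM in CD24+CD49f+ fMaSC, against 13.3 and 12.7 FPKM in CD24low stroma.

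**Figure D2:**
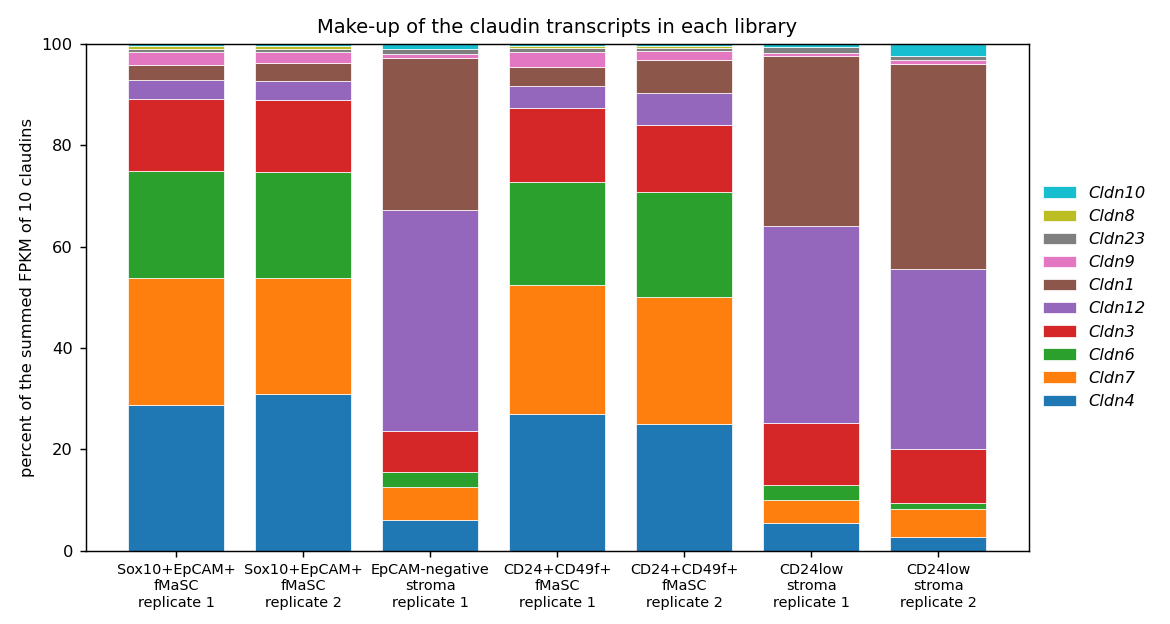
Share of each claudin in the summed FPKM of the 10 genes (vertical axis, percent), with 1 stacked bar per library. Cldn4, Cldn7, Cldn6 and Cldn3 fill 84.1% to 89.2% of the bars of fMaSC, and Cldn12 and Cldn1 fill 72.3% to 76.0% of the bars of stroma.

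The fMaSC fractions were then compared with each other. All 10 folds were above 0, from 0.31 (Cldn1) to 1.11 (Cldn4) on the log2 scale, and in 9 of 10 genes both Sox10+EpCAM+ libraries lay above both CD24+CD49f+ libraries. Such a separation occurred in 21.2% of all genes tested. Cldn1 was the exception, with 9.93 and 13.6 FPKM in Sox10+EpCAM+ fMaSC overlapping 8.08 and 10.5 FPKM in CD24+CD49f+ fMaSC. It was not called, nor were Cldn9 (0.75), Cldn23 (0.57), Cldn10 (0.47) and Cldn12 (0.41). Of the 10, 3 passed the test and were higher in Sox10+EpCAM+ fMaSC, against 1.95% of all genes: Cldn4 (log2 fold change 1.11, SE 0.25, limma adjusted p = 0.0456), Cldn6 (0.93, SE 0.20, adjusted p = 0.0438) and Cldn8 (0.83, SE 0.15, adjusted p = 0.0229). Cldn7 (0.83, SE 0.19, adjusted p = 0.0503) and Cldn3 (0.93, SE 0.22, adjusted p = 0.0555) came close to the threshold. Cldn8 and Cldn10 reached 1 FPKM in the Sox10+EpCAM+ libraries alone, so they entered this test only through the group where they are high. The call of Cldn8 therefore supports nothing beyond its values. None of the 3 calls was kept with a pseudocount of 0.1, with TPM scaling, without the filter on low values, or with only these 4 libraries in the fit. The same held without either Sox10+EpCAM+ replicate, CD24+CD49f+ replicate 2 or either CD24low stroma replicate, and 7 genes were called without CD24+CD49f+ replicate 1.

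In FPKM the ratio of the Sox10+EpCAM+ mean to the CD24+CD49f+ mean was 1.26 for Cldn1, 1.36 for Cldn12 and between 1.71 and 2.16 for 7 other genes, and 2.81 for Cldn8. Epithelial genes outside the claudin family had ratios of the same size, with 1.99 for Epcam, 2.03 for the cadherin gene Cdh1 and 1.84 for Krt8. Set as a percentage of Epcam in the same library, 7 of the 10 claudins overlapped between the fMaSC fractions. The share of all genes that overlap on this measure was not computed. The count therefore describes these values and carries no test. Cldn4 was 43.9% and 52.0% of Epcam in Sox10+EpCAM+ fMaSC and 42.9% and 46.4% in CD24+CD49f+ fMaSC. Cldn8 was the single gene above, with 1.04% and 0.854% of Epcam in Sox10+EpCAM+ fMaSC and 0.602% and 0.774% in CD24+CD49f+ fMaSC. Cldn7 lay below, with 38.2% and 38.5% in Sox10+EpCAM+ fMaSC and 40.5% and 46.7% in CD24+CD49f+ fMaSC, and so did Cldn12. EpCAM was a gate of one sort only, so its transcript is not an independent measure of epithelial content.

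The markers of other cell types moved along with this comparison. The fibroblast sums are given above. The summed FPKM of 5 erythroid markers was 151 and 85.3 in Sox10+EpCAM+ fMaSC and 6870 and 730 in CD24+CD49f+ fMaSC. For 6 Schwann cell and melanoblast markers the sum was 22.0 and 34.3 in Sox10+EpCAM+ fMaSC and 170 and 96.9 in CD24+CD49f+ fMaSC, and for 6 endothelial markers 2.76 and 3.49 in Sox10+EpCAM+ fMaSC and 13.9 and 18.9 in CD24+CD49f+ fMaSC. Their part in the claudin differences was not tested.

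**Figure D3:**
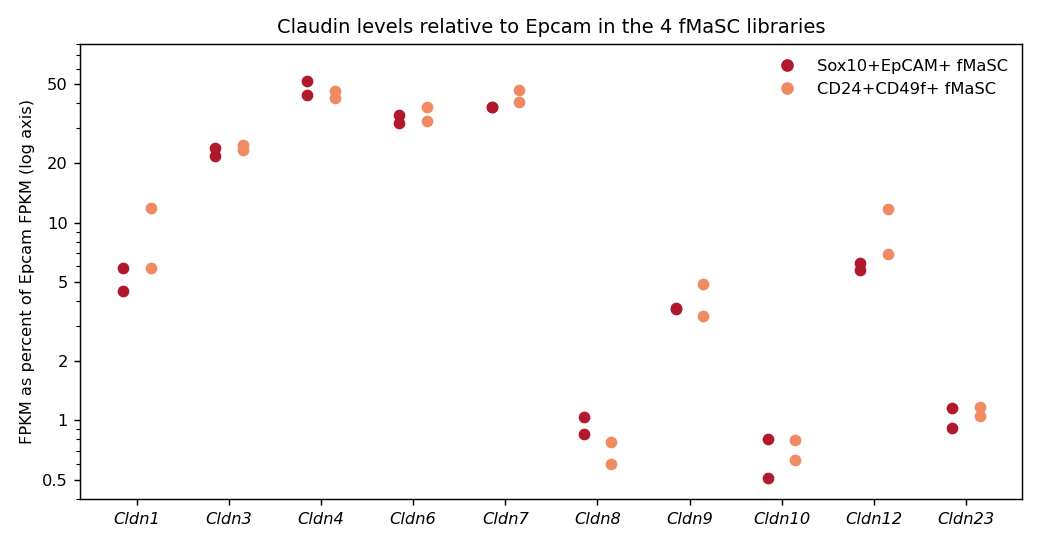
Level of each claudin as a percentage of the Epcam FPKM of the same library (vertical log axis), with 1 point per fMaSC library and Sox10+EpCAM+ fMaSC drawn left of CD24+CD49f+ fMaSC. Points of both fractions overlap for 7 genes. Both Sox10+EpCAM+ points are higher for Cldn8 and lower for Cldn7 and Cldn12, and the share over all genes was not computed.

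Between the stroma fractions no claudin of the set was called by limma, none had an unadjusted p under 0.05, and the log2 fold changes ran from -0.24 (Cldn3) to 0.27 (Cldn12). Cldn1 (-0.17) and Cldn10 (-0.07) also lay below 0, and Cldn4 (0.27), Cldn7 (0.20), Cldn6 (0.19), Cldn9 (0.04), Cldn8 (0.02) and Cldn23 (0.002) above it. With TPM scaling Cldn1 turned to 0.07, and Cldn10 and Cldn23 also changed sign under 1 or more settings. Of all genes 0.0277% were called and 436 had an unadjusted p under 0.05. With 1 library on one side, this comparison has little precision, with SEs of 0.18 to 0.38. The fMaSC-stroma folds were larger in the Sox10-EpCAM sort than in the CD24-CD49f sort for all 10 genes, by 0.14 (Cldn12) to 1.17 (Cldn3) on the log2 scale. Between these lay Cldn4 (0.85), Cldn8 (0.81), Cldn6 (0.74), Cldn9 (0.71), Cldn7 (0.63), Cldn23 (0.57), Cldn10 (0.53) and Cldn1 (0.47). The test of that difference called none of them, against 1.51% of all genes in either direction. Cldn3 (SE 0.35, limma adjusted p = 0.211) and Cldn8 (SE 0.23, adjusted p = 0.197) had unadjusted p under 0.05, as did 2112 of all genes. Without CD24+CD49f+ replicate 1, 2 genes (Cldn3 and Cldn9) were called. Under TPM scaling the difference for Cldn12 turned to -0.37. All of these comparisons share libraries with one another.

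**Figure D4:**
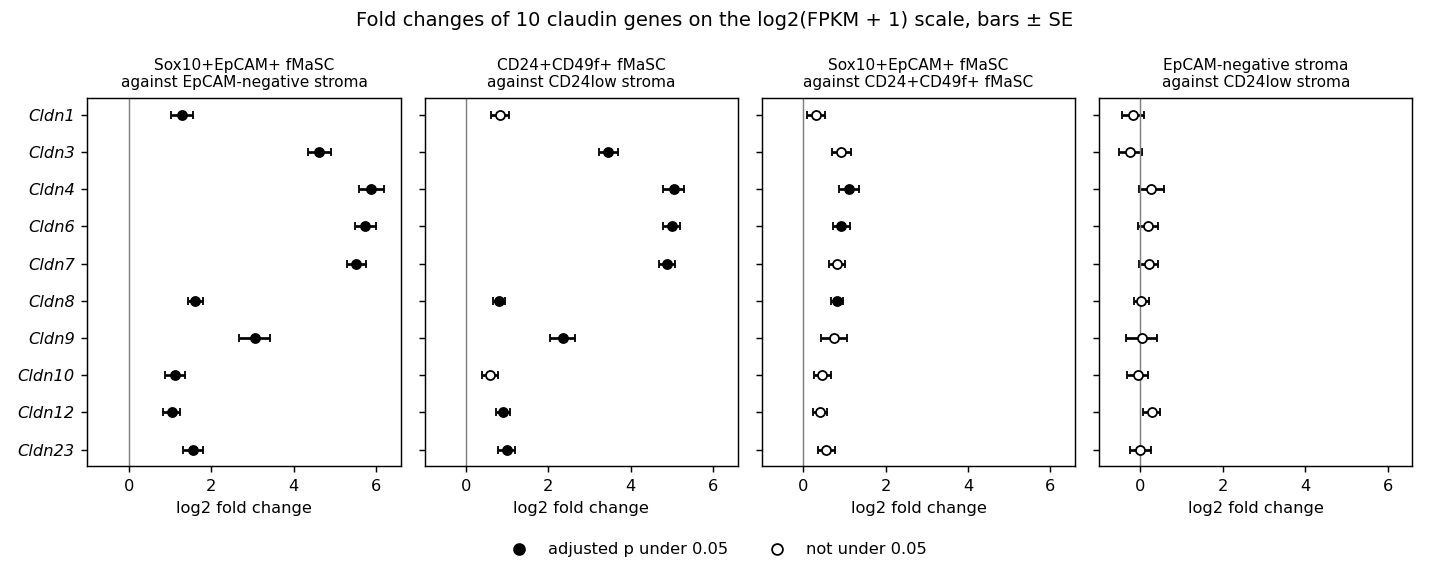
Log2 fold change of each claudin (horizontal axis, log2(FPKM + 1) scale, bars ± SE) in 4 comparisons, with filled points for limma adjusted p under 0.05. Folds reach 5.89 and 5.04 for Cldn4 between fMaSC and stroma, lie between 0.31 and 1.11 between the fMaSC fractions, and lie around 0 between the stroma fractions.

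Across the 7 libraries the log2 levels of Cldn3, Cldn4, Cldn6 and Cldn7 correlated pairwise with Pearson's r of 0.996 to 1.0, and over all 45 pairs of the 10 genes r ran from 0.902 to 1.0. These libraries fall into epithelial and stromal clusters, so the values describe that split and carry no test. By the same measure, the genes outside the family closest to the mean profile of the 10 were Muc15 (a membrane mucin), Ovol1 (a transcription factor of epithelia), Fam210b, Lypd3, Sdc4 (the proteoglycan syndecan-4) and Shisa2, with r of 0.998 to 0.999. The closest genes were also found for each claudin. Closest to Cldn4 were Sfn and St14, which encodes the protease matriptase. Closest to Cldn7 were Col9a3 and Epcam, with r of 0.9999 and 0.9994. Closest to Cldn6 were Spint2, an inhibitor of membrane proteases, and Col9a3, and closest to Cldn3 were Crb3, a polarity protein, and Tpd52. For the weaker claudins the closest were Fiz1 and Ss18 (Cldn1), Klhl9 and Gm10863 (Cldn8), Fxyd3 and Epgn (Cldn9), Utp3 and Gm17709 (Cldn10), Src and Plxnb1 (Cldn12), and Arf6 and Wdr5 (Cldn23), with r of 0.9885 to 0.9991. Muc15, the gene nearest to the mean profile, had a mean of 14.0 FPKM in Sox10+EpCAM+ fMaSC, against 0.171 FPKM in EpCAM-negative stroma, and 6.31 FPKM in CD24+CD49f+ fMaSC, against 0.0514 FPKM in CD24low stroma.

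Family members outside the set were mostly at or near 0. Of 23 other named claudins found, 18 stayed under 1 FPKM in every library, the highest of them at 0.861 FPKM, and 3 were listed at 0 throughout. This included genomic neighbours of the expressed claudins. Cldn13, 29.6 kb from Cldn4, did not exceed 0.136 FPKM, and Cldn17, 53.8 kb from Cldn8, and Cldn16, 91.3 kb from Cldn1, each reached at most 0.0358 FPKM. The 5 tested were Cldn5, Cldn11, Cldn15 and the near-identical copies Cldn34c1 and Cldn34c2, whose reads cannot be divided with certainty and which were not called in any comparison of fMaSC with stroma.

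Cldn15, a claudin known for sodium-permeable junctions of the intestine, ran opposite to the epithelial set. It had 0.298 and 0.218 FPKM in Sox10+EpCAM+ fMaSC, against 22.6 FPKM in EpCAM-negative stroma, and 4.52 and 4.79 FPKM in CD24+CD49f+ fMaSC, against 16.3 and 19.5 FPKM in CD24low stroma. The fMaSC libraries were below the stroma libraries in both sorts, by log2 fold changes of -4.23 (SE 0.20, limma adjusted p = 0.00026) and -1.74 (SE 0.17, adjusted p = 0.00255), where 13.6% and 2.94% of all genes were called lower and the libraries of 41.5% and 17.7% lay wholly below. The difference between the sorts was itself called (-2.49, SE 0.26, limma adjusted p = 0.0189, against 1.44% of all genes), but not without either Sox10+EpCAM+ replicate or either CD24low stroma replicate, nor with TPM scaling, where the adjusted p ran up to 0.17. The CD24+CD49f+ libraries that hold more Cldn15 are those with the higher fibroblast sums given above, and the part of fibroblasts in it was not tested.

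Cldn5, the claudin of endothelium, had 1.18 and 1.01 FPKM in Sox10+EpCAM+ fMaSC and 9.96 and 7.83 FPKM in CD24+CD49f+ fMaSC, with 1.30 FPKM in EpCAM-negative stroma and 3.29 and 2.51 FPKM in CD24low stroma. Cldn11, known from myelin, had 0.339 and 0.364 FPKM in Sox10+EpCAM+ fMaSC and 2.81 and 1.71 FPKM in CD24+CD49f+ fMaSC, with 0.514 FPKM in EpCAM-negative stroma and 0.278 and 0.334 FPKM in CD24low stroma. For both genes the CD24+CD49f+ fMaSC libraries were the highest of the 7. Both were higher there than in CD24low stroma, by 1.34 for Cldn5 (SE 0.19, limma adjusted p = 0.0101) and 1.30 for Cldn11 (SE 0.20, adjusted p = 0.0126), and each of these calls was lost under some settings, among them without CD24low stroma replicate 2. Neither passed the test in the Sox10-EpCAM sort (-0.14 for Cldn5 and -0.16 for Cldn11), and the difference between the sorts was not called (adjusted p = 0.0975 and 0.108). Both were lower in Sox10+EpCAM+ than in CD24+CD49f+ fMaSC, by -2.23 for Cldn5 (SE 0.19, limma adjusted p = 0.00257) and -1.25 for Cldn11 (SE 0.20, adjusted p = 0.0162), where 8.04% of all genes were called lower and 30.3% lay wholly below. The call of Cldn11 was lost without either Sox10+EpCAM+ replicate, where its adjusted p reached 0.142. The endothelial marker sum and the joint Schwann cell and melanoblast sum were also higher in CD24+CD49f+ than in Sox10+EpCAM+ fMaSC, as given above. In EpCAM-negative stroma they were 10.6 and 1.82. In CD24low stroma the endothelial sum was 22.7 and 20.6, above both CD24+CD49f+ libraries, but its genes did not move as one. By group mean, Tek (11.55 FPKM) and Emcn (1.71) were higher in CD24low stroma than in CD24+CD49f+ fMaSC (2.55 and 0.808). Also by mean, Pecam1 (3.33), Cdh5 (3.38), Kdr (1.06) and Tie1 (0.609) were lower in CD24low stroma (4.77, 4.84, 1.81 and 1.65 in CD24+CD49f+ fMaSC). The Schwann cell and melanoblast sum was 12.1 and 9.11 in CD24low stroma, below both CD24+CD49f+ libraries. The part of these cell types in Cldn5 and Cldn11 was not tested.

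**Figure D5:**
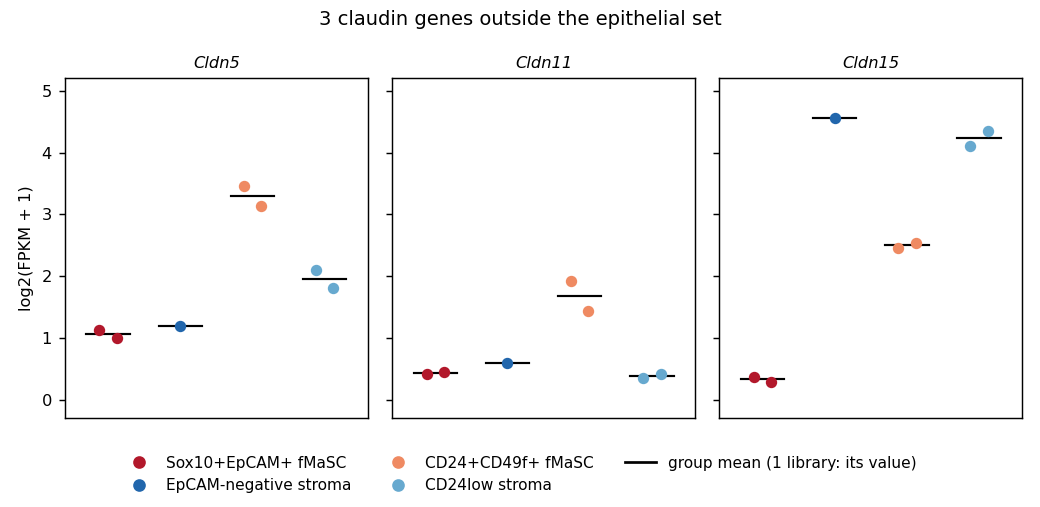
Levels of Cldn5, Cldn11 and Cldn15 (vertical axis, log2(FPKM + 1)) in each library, with a line for the group mean. Cldn15 is highest in stroma (16.3 to 22.6 FPKM), and Cldn5 and Cldn11 are highest in CD24+CD49f+ fMaSC.

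Genes for proteins that build tight junctions with the claudins were mostly higher in fMaSC as well. With both sorts in 1 model, 16 of 27 strand and scaffold genes were called higher and 2 lower in fMaSC than in stroma, against 15.6% and 9.5% of all genes, with a median log2 fold change of 1.26. The leading genes were Lsr (4.42) and Marveld2 (2.57), which act at contacts where 3 cells meet, the adhesion receptor gene Cxadr (4.31), Ocln, which encodes occludin (3.47), Crb3 (3.37) and Marveld3 (3.19), all with limma adjusted p of 0.000423 or lower. These leading genes stayed under 1 FPKM in every stroma library and passed the filter through fMaSC alone. The count of higher calls rests in part on such genes and supports nothing beyond the values of each gene. Ocln had 18.0 and 20.2 FPKM in Sox10+EpCAM+ fMaSC, against 0.334 FPKM in EpCAM-negative stroma, and 9.53 and 7.4 FPKM in CD24+CD49f+ fMaSC, against 0.0292 and 0.0527 FPKM in CD24low stroma. Ildr2 fell by 1.30 and Jam2 fell by 0.57 on the log2 scale (limma adjusted p = 0.00133 and 0.0381). The scaffold gene Tjp1, which encodes ZO-1, had 9.35 and 9.76 FPKM in Sox10+EpCAM+ fMaSC, against 5.86 FPKM in EpCAM-negative stroma, and 6.97 and 13.9 FPKM in CD24+CD49f+ fMaSC, against 10.4 and 6.34 FPKM in CD24low stroma, with overlap in the second sort.

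Of 12 genes for surface proteins and proteases linked to claudins, 11 were called higher in fMaSC in the model of both sorts. The share of all genes called higher was 15.6%, and the median log2 fold change of the 12 genes was 4.10. Among those called were Epcam (6.42), Spint2 (5.39), Cdh1 (4.69), Tspan8 (4.35) and Spint1 (4.21). Spint2, Cdh1, Tspan8 and Spint1 stayed under 1 FPKM in every stroma library and passed the filter through fMaSC alone. Here too the count supports nothing beyond the values of each gene. Epcam was a sorting marker of one of the sorts, so its difference there was set by the gate. The tetraspanin gene Cd81 was the 1 not called higher, with 71.7 and 68.7 FPKM in Sox10+EpCAM+ fMaSC, against 109 FPKM in EpCAM-negative stroma, and 99.1 and 98.5 FPKM in CD24+CD49f+ fMaSC, against 119 and 115 FPKM in CD24low stroma.

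Of 15 tested genes for transcription and splicing regulators linked to epithelial claudin genes, 14 were called higher in fMaSC in the same model. This compares with 15.6% of all genes, and the median log2 fold change of the 15 genes was 2.89. The largest folds were those of Tfap2c (4.84), Esrp1 (4.30), Ovol1 (3.58), Tfap2a (3.33), Elf5 (3.27) and Ehf (3.26), and the exception was Klf4. Tfap2c, Esrp1, Ovol1, Tfap2a, Elf5 and Ehf stayed under 1 FPKM in every stroma library and passed the filter through fMaSC alone. Counting such genes adds nothing to the values of each gene. Tfap2c, which encodes an AP-2 factor, had 44.4 and 43.9 FPKM in Sox10+EpCAM+ fMaSC, against 0.154 FPKM in EpCAM-negative stroma, and 22.2 and 26.5 FPKM in CD24+CD49f+ fMaSC, against 0.130 and 0.0460 FPKM in CD24low stroma.

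The 6 genes for repressors that bind E-boxes of claudin genes did not move as one. With both sorts in 1 model, Twist2, Twist1 and Zeb1 fell by 2.76, 2.48 and 2.47 on the log2 scale (limma adjusted p = 0.0341, 0.0466 and 0.0359), where 9.5% of all genes were called lower. Snai2 was higher in fMaSC (0.89, SE 0.16, adjusted p = 0.0112). Snai2 had 50 and 42.0 FPKM in Sox10+EpCAM+ fMaSC, against 21.1 FPKM in EpCAM-negative stroma, and 31.1 and 39.9 FPKM in CD24+CD49f+ fMaSC, against 19.9 and 21.2 FPKM in CD24low stroma. Zeb1 had 0.294 and 0.498 FPKM in Sox10+EpCAM+ fMaSC, against 28.7 FPKM in EpCAM-negative stroma, and 6.04 and 12.9 FPKM in CD24+CD49f+ fMaSC, against 24.0 and 18.7 FPKM in CD24low stroma. Snai1 (-1.61, adjusted p = 0.0777) and Zeb2 (-2.18, adjusted p = 0.0568) did not pass the test in this model. In Sox10+EpCAM+ fMaSC against EpCAM-negative stroma 5 of the 6 were called lower, against 13.6% of all genes, with a median log2 fold change of -4.28, Snai1 (-3.14, limma adjusted p = 0.00703) and Zeb2 (-4.14, adjusted p = 0.00273) among them, and Snai2 was called higher (1.09, adjusted p = 0.0239). In CD24+CD49f+ fMaSC against CD24low stroma Twist1 was the 1 gene called lower (-0.97, limma adjusted p = 0.0432), against 2.94% of all genes. The difference between the sorts was called lower for Twist1 and Twist2, against 1.44% of all genes, and not called for Zeb1, Zeb2, Snai1 or Snai2.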

How the data were processed

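RNA from FACS-sorted cells was turned into TruSeq libraries and read from both ends with 100 bases in duplicate lanes of a HiSeq2000, per the labels' protocols. STAR, Cufflinks and the build GRCm38/mm10 are named in the submitters' processing notes, and versions are not given in the sources used here. The deposited table holds FPKM per gene, per the file headers, and all 7 columns were used. Depth was estimated from low FPKM of genes with 1 transcript, of which 77.0% to 83.4% lay within 0.15 of a whole fragment, so depths are approximate and no count test was run. Symbols were matched without regard to case and checked by Ensembl identifier against GENCODE vM21. Entries named Cldn25 and Cldn26 carry the identifiers of Cldnd1 and Tmem114 and were not taken as claudins.

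Of 38579 entries, the 14418 that reached 1 FPKM in 2 or more of the 7 libraries were tested on log2(FPKM + 1). A linear model with 1 mean for each of the 4 groups was fitted in limma 3.58.1 (R 4.3.3), moderated by empirical Bayes with a trend, with 3 residual degrees of freedom. The model of both sorts has cell type plus sort, with 4. All p-values are two-sided, adjusted by Benjamini and Hochberg over all genes tested, with a threshold of 0.05, and the code was tested on simulated data. They measure only the spread between these libraries. Replicate numbers are in accession order. The 10 genes and the gene lists were chosen with earlier results of these data known. All 10 are named in every comparison, from each list up to 6 tested genes with the largest folds in the model of both sorts, and as similar genes those with the highest Pearson's r and a mean of 5 FPKM or more (6 for the mean profile, 2 per claudin). One gene that this rule names is not reported here. Ildr2, Jam2, Jam3, Tjp1, Cd81, Klf4 and claudins outside the set are described by choice after their values were seen. Alternatives changed the pseudocount, filter, scaling, variance model and libraries in the fit.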

Additional observations from a re-analysis of the deposited data

Results flagged for a closer look

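The test of the difference in fMaSC-stroma folds between the sorts called 1 claudin outside the set and 3 genes of the related lists. All were called lower, as were 1.44% of all genes tested. The call of Cldn15 was lost under some settings, as given above. The calls of the other 3 genes were not followed under other settings. The difference was -2.49 for Cldn15 (limma adjusted p = 0.0189), -2.42 for the junctional adhesion molecule gene Jam3 (adjusted p = 0.0189), -3.78 for the repressor gene Twist1 (adjusted p = 0.0163) and -3.62 for Twist2 (adjusted p = 0.0404). Jam3 had 1.86 and 1.83 FPKM in Sox10+EpCAM+ fMaSC, against 14.9 FPKM in EpCAM-negative stroma, and 13.9 and 13.3 FPKM in CD24+CD49f+ fMaSC, against 13.4 and 15.3 FPKM in CD24low stroma. Twist1 had 0.739 and 0.844 FPKM in Sox10+EpCAM+ fMaSC, against 47.1 FPKM in EpCAM-negative stroma, and 21.7 and 29.9 FPKM in CD24+CD49f+ fMaSC, against 57.2 and 45.4 FPKM in CD24low stroma. The part of the fibroblast transcripts in the CD24+CD49f+ fMaSC libraries was not tested.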

How the results depend on the processing

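For the 10 claudins and Cldn5, Cldn11 and Cldn15, 1096 of 1201 values over the 6 comparisons under other settings kept their direction and their side of the threshold, 90 lost a call, 10 gained one and 5 reversed, none of them called. Cldn12, difference between sorts, was -0.37 with TPM scaling. In EpCAM-negative stroma against CD24low stroma, Cldn1 was 0.069 with TPM scaling and Cldn23 was -0.002 with quantile normalization. With 1 library left out, Cldn10 ran there from -0.203 to 0.067 and Cldn23 from -0.038 to 0.043. The causes were not tested. No paired analysis was possible because the labels give no shared replicate numbers. EpCAM-negative stroma is 1 library, so fits without it gave no value for its comparisons, and low FPKM, down to about 1.0 fragment for Cldn8, limit what stroma values can show.

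With 1 library left out, claudins of the set called higher numbered 6 to 10 in Sox10+EpCAM+ fMaSC against EpCAM-negative stroma, 4 to 8 in CD24+CD49f+ fMaSC against CD24low stroma, 8 to 10 in the model of both sorts, 0 to 7 in Sox10+EpCAM+ against CD24+CD49f+ fMaSC, 0 to 0 between stroma fractions and 0 to 2 for the difference between sorts. All genes called higher and lower then numbered 822 to 3062 and 848 to 2696 in the first of these, 371 to 1485 and 55 to 868 in the second, 1129 to 3858 and 419 to 2516 in the model of both sorts, 14 to 738 and 246 to 1771 between fMaSC fractions, 0 to 7 and 0 to 4 between stroma fractions, and 2 to 161 and 2 to 813 for the difference between sorts. The counts with all libraries were 1803 and 1959, 1121 and 424, 2252 and 1369, 281 and 1159, 2 and 2, and 11 and 207.

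Without the filter on low values, 7 claudins were called in Sox10+EpCAM+ fMaSC against EpCAM-negative stroma and 4 in CD24+CD49f+ fMaSC against CD24low stroma. In the model of both sorts 6 were called, and 0 between fMaSC fractions. Genes called were then 348 higher and 97 lower in CD24+CD49f+ fMaSC against CD24low stroma, 1238 and 363 in the model of both sorts, 267 lower between fMaSC fractions, 741 higher and 22 lower between stroma fractions, and 168 and 819 for the difference between sorts. With a filter of 5 FPKM, 1259 genes were lower in Sox10+EpCAM+ fMaSC against EpCAM-negative stroma, 700 higher and 271 lower in CD24+CD49f+ fMaSC against CD24low stroma, 894 lower in the model of both sorts, 127 higher and 766 lower between fMaSC fractions, and 1 lower between stroma fractions.

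With TPM scaling, 7 claudins were called in Sox10+EpCAM+ fMaSC against EpCAM-negative stroma and 5 in CD24+CD49f+ fMaSC against CD24low stroma. In the model of both sorts 7 were called, and 0 between fMaSC fractions. Genes called were 594 higher in Sox10+EpCAM+ fMaSC against EpCAM-negative stroma, 433 higher and 123 lower in CD24+CD49f+ fMaSC against CD24low stroma, 792 and 812 in the model of both sorts, 13 and 518 between fMaSC fractions, and 50 lower for the difference between sorts. Quantile normalization gave 772 lower in CD24+CD49f+ fMaSC against CD24low stroma, 2056 lower in the model of both sorts, 526 higher between fMaSC fractions, 4 lower between stroma fractions and 92 lower for the difference. TPM scaling moved the median fold of all genes by -0.72 in the first sort, -0.25 in the second, -0.44 in the model of both sorts, -0.22 between fMaSC fractions, 0.25 between stroma fractions and -0.48 for the difference. The share of calls that were higher was 47.9% in the first sort and 26.8% with TPM scaling. In the second sort it was 72.6%, and 61.8% with upper quartile scaling and 52.6% with quantile normalization. In the model of both sorts it was 62.2%, and 49.4% with TPM, 48.8% with upper quartile and 44.7% with quantile normalization. Between fMaSC fractions it was 19.5%, and 2.4% with TPM scaling and 39.2% with quantile normalization, and for the difference between sorts 5%, and 15.3% with TPM scaling. Without the filter on low values it was 77.3% in the model of both sorts, 51% between fMaSC fractions, 97.1% between stroma fractions and 17% for the difference.

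With only the libraries compared in the fit, 5 claudins were called in CD24+CD49f+ fMaSC against CD24low stroma and 0 between fMaSC fractions. Genes called were 4332 higher and 3546 lower in Sox10+EpCAM+ fMaSC against EpCAM-negative stroma, 672 and 113 in CD24+CD49f+ fMaSC against CD24low stroma, 46 higher between fMaSC fractions, and 20 and 9 between stroma fractions. On log2(FPKM + 0.1), 0 claudins and 112 genes were higher between fMaSC fractions, and 18 genes were higher and 403 lower for the difference between sorts. On log2(FPKM + 0.5), 1 claudin was called between fMaSC fractions.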
